A study of Homo sapiens with 118 samples.

Results

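The transcripts of 10 stromal extracellular matrix genes were followed in differentiated HepaRG cells, a human line of hepatic origin, after exposure to 1 of 8 histone deacetylase inhibitors. The 10 genes were CCDC80, DCN, LUM, BGN, TNC, FBLN1, FN1, VCAN, POSTN and SPARC, of 19470 gene symbols in the count table. Their members were all rows whose name, without the trailing probe number, equals one of these symbols, which gave 15 of 22068 rows. FN1 and DCN had 3 probes each, SPARC had 2 and the other genes had 1. CCDC80, DCN and TNC were selected on their differences between concentrations in these same counts, so those differences are described below with no test. The other 7 genes, with 10 probes, were tested in a fit across all rows.

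The cells were kept for 7 days and then exposed for 72 h with daily renewal of the chemical. The chemicals, with the lowest (C1) and highest (C5) of 5 concentrations in µM, were apicidin (0.041722 and 0.86), mocetinostat (0.177222 and 3.9), panobinostat (0.001468 and 0.084) and trichostatin A (0.018811 and 1.5237). Scriptaid was given at 4.94 to 94.5 µM, tacedinaline at 1.143333 to 44.0 µM and vorinostat at 0.404778 to 23.5 µM. The dose labels of valproic acid run from 100.478 to 3038, but the treatment protocol states values lower by orders of magnitude, so its unit is open. Each of 38 groups held 1 library from each of 3 HepaRG batches, and panobinostat C3 and trichostatin A C4 had no library of batch 3. Solvent controls were not used here, so C1 is the reference and a change already complete at C1 cannot be seen. Scriptaid, tacedinaline and vorinostat are labelled as plate E and the other 5 chemicals as plate H, so levels at C1 of chemicals on different plates differ in plate as well, while each comparison with C1 lies within 1 plate label. All cells came from 1 line, derived from a liver tumor, and the labels name no separate donor for the batches.

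The matrix between cells is built of fibrous collagens, adhesive glycoproteins and proteoglycans, which carry long sugar chains. DCN, LUM and BGN encode the small leucine-rich proteoglycans decorin, lumican and biglycan, which bind collagen fibrils. VCAN encodes versican, a large proteoglycan that binds hyaluronan. FN1 encodes fibronectin, the main adhesive glycoprotein, which hepatocytes also secrete into plasma, and FBLN1 encodes fibulin-1, which binds it. TNC, POSTN and SPARC encode tenascin-C, periostin and osteonectin, matricellular proteins that modulate adhesion rather than build the scaffold, and CCDC80 encodes a secreted protein that binds the matrix. In the liver most of these are made in quantity by activated stellate cells and fibroblasts in scarring.

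RefSeq promoters of GRCh38.p14 were at hand for 8 of the 10 genes, not for DCN and LUM. Those of CCDC80, TNC, POSTN and SPARC are shown, a choice made after their values were seen, because CCDC80, POSTN and SPARC had large drops with concentration and TNC went both ways. Each line holds the 250 bases before the transcript start on the strand of the gene, which is the minus strand for all 4. Capitals mark a match to the TATA box TATAAA, to the CCAAT box, to the GC box GGGCGG or to the AP-1 motif, which is TGA, any base and then TCA. All were searched on both strands.
CCDC80, chr3:112641144-112641393: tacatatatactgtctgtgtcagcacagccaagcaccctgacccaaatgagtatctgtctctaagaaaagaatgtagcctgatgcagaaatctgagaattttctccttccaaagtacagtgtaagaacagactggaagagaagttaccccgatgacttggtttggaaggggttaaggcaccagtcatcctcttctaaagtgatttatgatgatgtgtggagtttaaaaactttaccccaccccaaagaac
TNC, chr9:115118158-115118407: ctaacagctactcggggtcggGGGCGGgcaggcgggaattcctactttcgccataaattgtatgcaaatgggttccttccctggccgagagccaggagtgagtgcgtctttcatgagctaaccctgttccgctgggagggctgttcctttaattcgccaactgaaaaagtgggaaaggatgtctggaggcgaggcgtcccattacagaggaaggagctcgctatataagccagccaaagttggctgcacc
POSTN, chr13:37598769-37599018: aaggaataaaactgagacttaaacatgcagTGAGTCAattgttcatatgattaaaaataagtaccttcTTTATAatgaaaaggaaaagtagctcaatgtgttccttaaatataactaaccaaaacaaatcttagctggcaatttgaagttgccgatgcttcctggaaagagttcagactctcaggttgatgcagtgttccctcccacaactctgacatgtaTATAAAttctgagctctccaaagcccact
SPARC, chr5:151686916-151687165: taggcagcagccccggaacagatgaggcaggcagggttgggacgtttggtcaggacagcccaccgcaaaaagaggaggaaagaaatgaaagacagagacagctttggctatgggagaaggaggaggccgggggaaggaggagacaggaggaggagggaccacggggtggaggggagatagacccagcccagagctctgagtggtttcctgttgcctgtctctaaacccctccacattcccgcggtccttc
The CCDC80 and SPARC windows held none of these letters. The TNC window held 1 GC box. The POSTN window held 1 AP-1 site and 2 matches to the TATA letters, TATAAA 29 bases and its reverse-strand form TTTATA 182 bases before the start. The search took exact letters, so the near form tatataag close to the end of the TNC window is not marked. Among 35116 promoters of the same length a TATA box was present in 10.7%, a CCAAT box in 32%, a GC box in 42.6% and an AP-1 site in 6.57%. CCDC80 and POSTN had 1 CpG dinucleotide each in this window, SPARC had 7 and TNC 12, against a median of 11 over all promoters. FN1 had 32, with 6 GC boxes and 1 CCAAT box. These matches describe the letters only.

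Total counts per library ran from 1061359 to 5250260. Depth differed between C1 and C5 in some chemicals, most in vorinostat (1785295 to 4134455 at C1, 1061359 to 1879287 at C5) and scriptaid (3211351 to 4181109 against 1785844 to 3123879). Values are given as counts scaled to library size (CPM, edgeR's library-size unit), and levels of different probes are not set against each other. The correlation of a library with the others of its group had a median of 0.961, and it was under 0.9 in 12 libraries, namely all 3 of scriptaid C4 and of mocetinostat C2, batch 1 of mocetinostat C3 and of apicidin C4, batches 2 and 3 of valproic acid C4, batch 2 of panobinostat C2 and batch 3 of trichostatin A C1. In lysates of a whole culture, fewer cells that make a gene and less of its RNA per cell cannot be told apart.

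Among the 7 tested genes, transcripts of SPARC, POSTN, LUM, VCAN, FN1 and FBLN1 fell at C5 against C1 in some chemicals, and 1 probe rose in 1 chemical. A probe was called when its adjusted p in edgeR's quasi-likelihood test was under 0.05 and its fold change at least 1.5. Over 68 pairs of a probe and a chemical that could be tested, 25 fell and 1 rose, while over all rows 13.4% of pairs fell and 11.6% rose. All 26 differences had the same direction in every batch. The thresholds of a call favour such agreement, and its share among the calls over all rows was not computed. In apicidin 6 of 8 probes fell, against 15.0% of all rows tested there. The numbers were 5 of 8 in mocetinostat (15.7% of all rows), 6 of 9 in scriptaid (17.0%), 4 of 8 in tacedinaline (20.1%) and 4 of 8 in vorinostat (24.9%). Probes of the same gene count separately here and are not independent. The 6 in apicidin were of FN1, LUM, POSTN and SPARC, and the 6 in scriptaid of FN1, FBLN1, POSTN and SPARC. None of 9 fell in panobinostat (9.46%), trichostatin A (0.0154%) or valproic acid (6.22%), where 1 of 9 rose (4.84%). At an unadjusted p under 0.05 these 3 chemicals had 2, 1 and 5 of 9 probes, counted in either direction. Over all rows 2138 of 13104, 574 of 12993 and 1590 of 12982 fell at such a p, and in valproic acid 1532 rose. DESeq2 called 1, 0 and 1 of the 9 probes. The same probes gave a median log2 change of -1.40 in scriptaid, -1.15 in mocetinostat, -1.09 in vorinostat, -0.83 in apicidin and -0.68 in tacedinaline. It lay between -0.15 and 0.05 in the other 3 chemicals, while the median over all rows was at most 0.08 from 0 in each of the 8. Trichostatin A had almost no calls over all rows, 2 of 12993, and 104 of 12878 without the C1 library of batch 3 that stands apart. Probes of the 7 genes had 0 calls there in both cases.

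**Figure D1:**
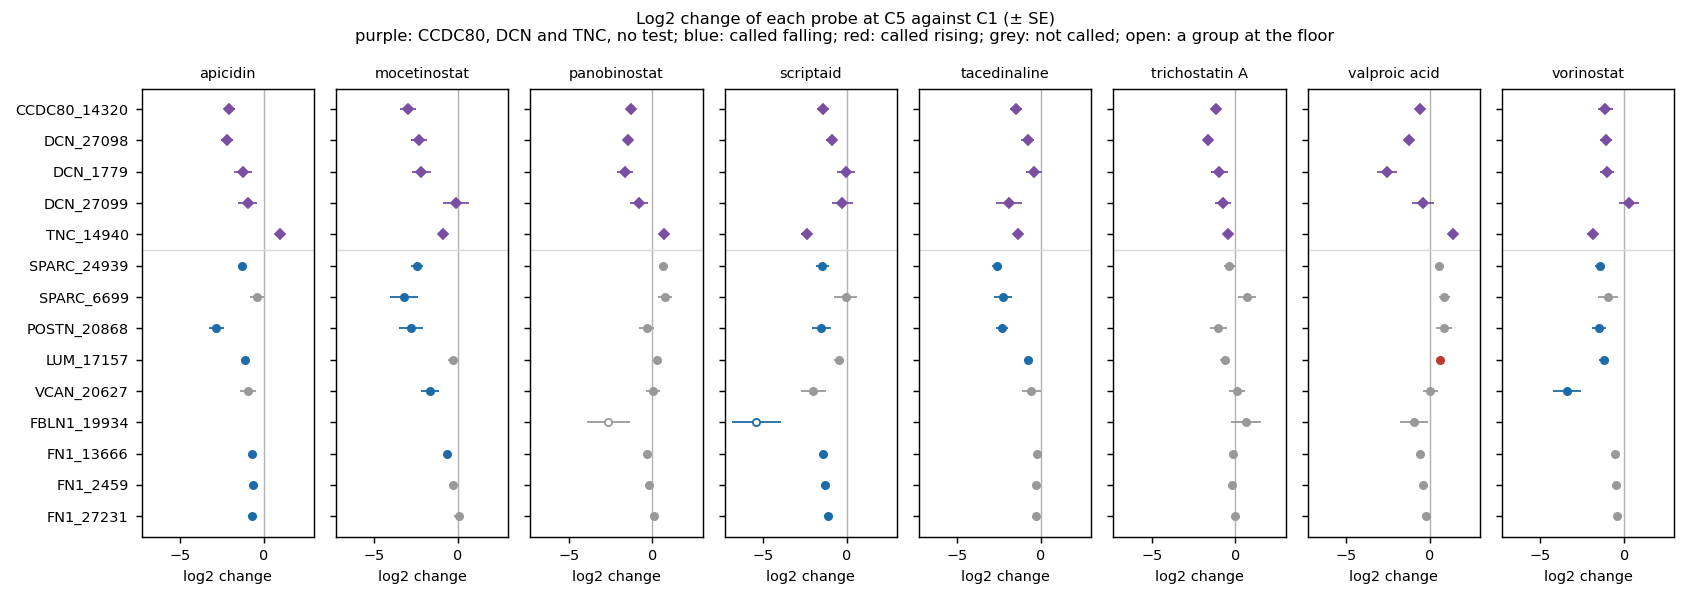
Log2 change at C5 against C1 (horizontal axis, with standard error) of each probe that could be tested (vertical axis) in each of the 8 chemicals. Purple diamonds are CCDC80, DCN and TNC, which were chosen for this difference and have no test. Blue points fell, the red point rose and grey points were not called. An open point has a group at the floor of 3 counts. CCDC80 lies left of 0 in every panel, TNC lies on either side, and the blue points sit in apicidin, mocetinostat, scriptaid, tacedinaline and vorinostat.

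CCDC80 was lower at C5 than at C1 in every chemical, and its mean was highest at C1 in all 8. In mocetinostat the C1 libraries had 36.9, 38.7 and 46.6 CPM and the C5 libraries 2.83, 4.10 and 7.57 CPM. In apicidin the values were 30.6, 39.6 and 33.5 CPM at C1 and 9.15, 9.77 and 5.72 CPM at C5. The values of both chemicals were far apart between C1 and C5, with fitted log2 changes of -3.00 (SE 0.486) and -2.05 (SE 0.327). In trichostatin A CCDC80 had 50.3, 52.4 and 50.4 CPM at C1 and 17.4, 25.8 and 23.3 CPM at C5. In panobinostat it had 42.9, 41.9 and 41.2 CPM against 19.0, 15.0 and 17.8 CPM. CCDC80 did not overlap between C1 and C5 in these 4 chemicals. CCDC80, DCN and TNC were chosen on such differences, so gaps between their libraries carry no independent weight. The share of all rows with such gaps was not computed. The log2 change of CCDC80 was -1.19 in trichostatin A and -1.30 in panobinostat. In tacedinaline its values were 32.8, 36.1 and 40.0 CPM at C1 and 9.40, 15.4 and 12.2 CPM at C5. In scriptaid they were 37.1, 40.6 and 27.3 CPM against 16.4, 8.23 and 12.9 CPM. Both chemicals again had every C5 library below every C1 library, with log2 changes of -1.47 and -1.42. The smallest change, -0.59 (SE 0.258), was in valproic acid, from 32.6, 40.6 and 36.7 CPM to 20.7, 28.0 and 23.7 CPM. In vorinostat the values were 39.1, 24.2 and 30.4 CPM at C1 and 25.3, 4.71 and 11.8 CPM at C5, and the 2 groups overlapped through the C5 library of batch 1. CCDC80 was measured by 1 probe, with 10 to 226 counts per library.

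**Figure D2:**
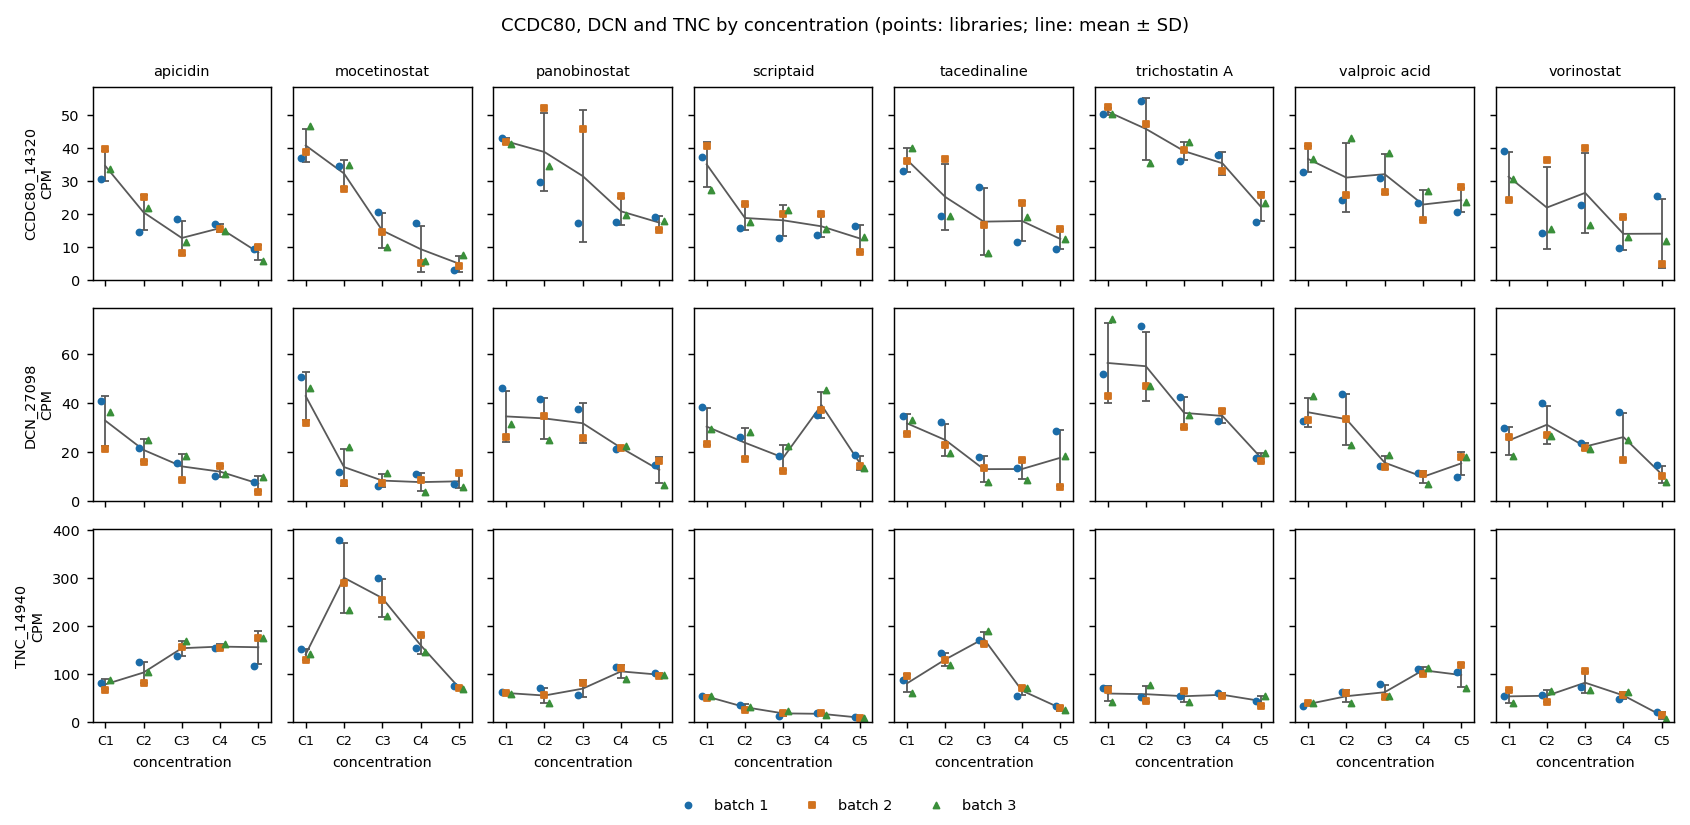
CPM of CCDC80, of the best-counted DCN probe and of TNC (rows, linear axes from 0) at C1 to C5 of each chemical (columns). Points are libraries, coloured by HepaRG batch, and the line joins group means with SD bars. CCDC80 declines from C1 in each chemical, DCN declines with more scatter, and TNC peaks at C2 in mocetinostat and at C3 in tacedinaline before it falls below its C1 level.

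DCN, the decorin transcript, was read by 3 probes, and they did not behave alike. The best-counted, DCN_27098, was lower at C5 in all 8 chemicals, with log2 changes from -2.32 to -0.79. In mocetinostat it had 50.6, 31.7 and 46.0 CPM at C1 and 6.95, 11.3 and 5.75 CPM at C5. In apicidin it had 40.9, 21.3 and 36.2 CPM against 7.84, 3.67 and 9.70 CPM. The groups were apart in both, with log2 changes of -2.32 (SE 0.472) and -2.20 (SE 0.377). In trichostatin A the C1 values were 51.8, 42.8 and 74.3 CPM and the C5 values 17.4, 16.3 and 19.5 CPM. The highest of these is the library that stands apart, and the log2 change was -1.65 with it and -1.41 without it. In tacedinaline the values were 34.5, 27.2 and 33.2 CPM at C1 and 28.7, 5.82 and 18.3 CPM at C5. Its C5 libraries spread widely and overlapped C1. In scriptaid the probe did not decline steadily, with 35.0, 37.2 and 45.2 CPM at C4, above 18.1, 12.3 and 22.5 CPM at C3 and 18.9, 14.2 and 13.3 CPM at C5. The 3 scriptaid C4 libraries are among those that stand apart.

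The second DCN probe, DCN_1779, had lower means at C5 in all 8 chemicals too, with log2 changes from -2.55 in valproic acid to -0.02 in scriptaid. In valproic acid it had 18.4, 8.55 and 11.4 CPM at C1 and 4.01, 1.42 and 0.846 CPM at C5, from 19, 6 and 3 counts. The third, DCN_27099, ran from -1.92 in tacedinaline to 0.28 in vorinostat, and its C1 and C5 libraries overlapped in every chemical but apicidin. Over the 32 groups from C2 to C5, set against C1 of the same chemical, Pearson's r between DCN_27098 and DCN_1779 was 0.673, between DCN_27098 and DCN_27099 0.327, and between DCN_1779 and DCN_27099 -0.043. The 3 FN1 probes had r of 0.811 to 0.924 and the 2 SPARC probes 0.832 over the same groups, which share libraries, C1 references and cells. DCN_27099 had a median of 25 counts and DCN_1779 of 32, against 68.5 for DCN_27098. Statements on decorin here therefore hold for 1 or 2 of its probes.

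**Figure D3:**
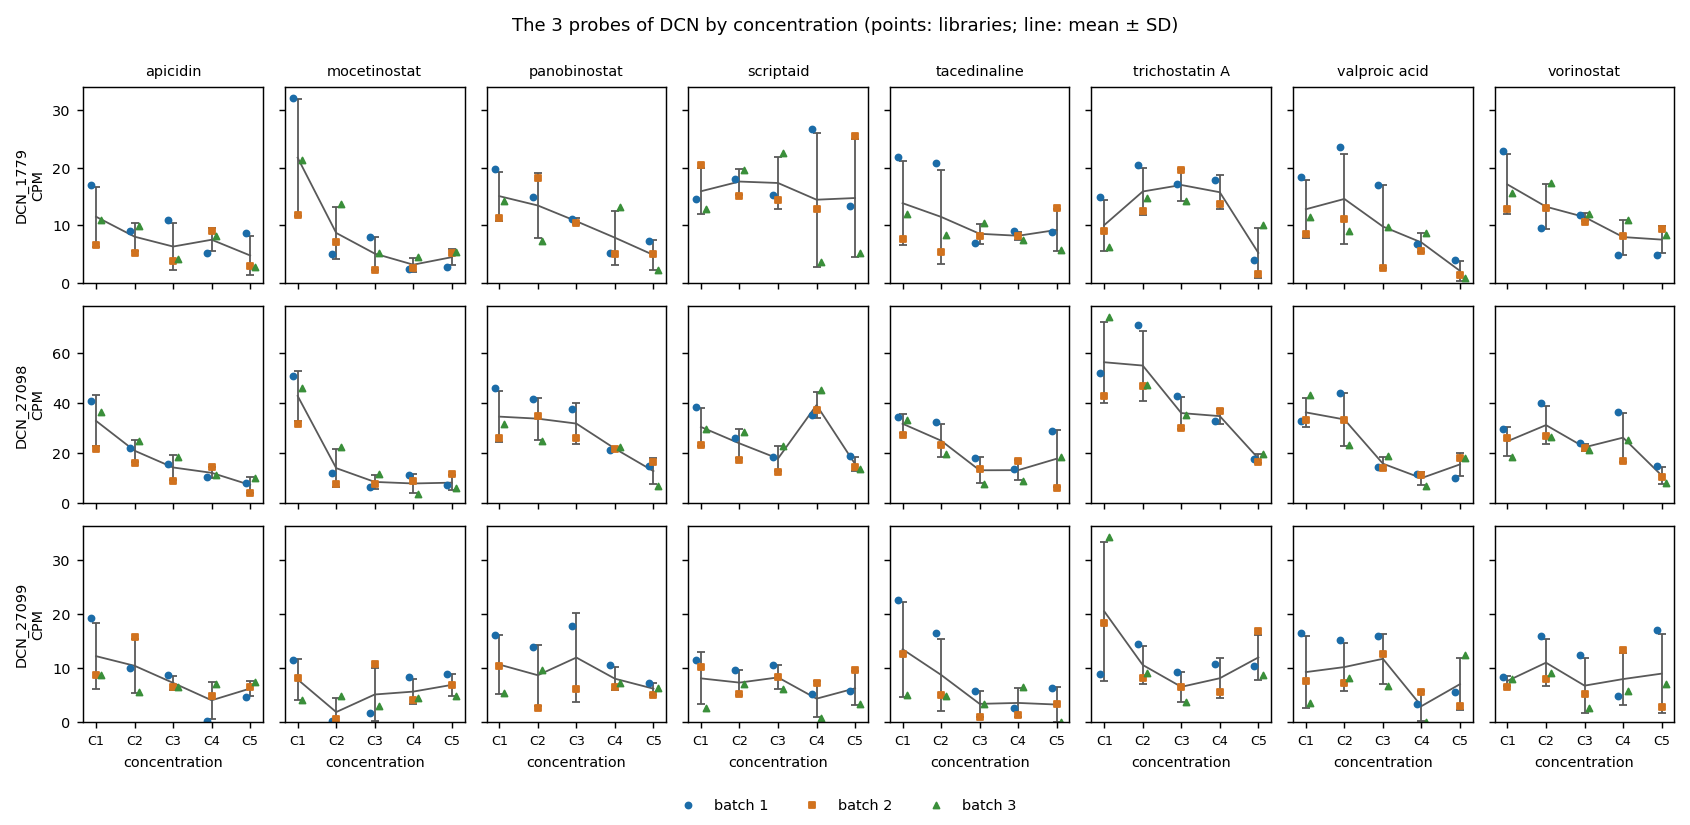
CPM of the 3 DCN probes (rows, linear axes from 0) at C1 to C5 of each chemical (columns). Points are libraries, coloured by batch, and the line joins group means with SD bars. DCN_27098 and DCN_1779 have lower C5 than C1 means in each chemical, while DCN_27099 scatters, with 1 trichostatin A library at 34.3 CPM.

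TNC, the tenascin-C transcript, differed in direction between chemicals, and in mocetinostat, tacedinaline and vorinostat its mean rose and then fell. Its highest mean was at C2 to C4 in 6 of 8 chemicals. In apicidin, panobinostat and valproic acid the highest mean, at C4, was within the spread of C4 and C5. It was 157 ± 5.20 against 155.7 ± 33.9 CPM in apicidin and 105.5 ± 14.1 against 98.7 ± 3.57 CPM in panobinostat (SD, n = 3). In valproic acid it was 108 ± 6.81 against 98.0 ± 25.3 CPM. In mocetinostat TNC had 152, 128 and 142 CPM at C1, 378, 289 and 233 CPM at C2 and 76.2, 71.8 and 68.7 CPM at C5. The C2 libraries were above all C1 libraries and the C5 libraries below them, and the mean at C2 was 2.13 times that at C1. All 3 libraries of mocetinostat C2 stand apart from each other. In tacedinaline the same course peaked at C3, with 86.7, 95.6 and 60.5 CPM at C1, 170.3, 161 and 189 CPM at C3 and 34.6, 29.1 and 24.4 CPM at C5. In vorinostat TNC had 54.2, 66.7 and 40.4 CPM at C1, 72.4, 107 and 66.7 CPM at C3, and 20.4, 14.6 and 6.48 CPM at C5. The C1 and C3 libraries overlapped at 66.7 CPM there, and all C5 libraries were lower. In scriptaid TNC was highest at C1, with 54.8, 50.4 and 55.5 CPM, and had 10.1, 9.65 and 9.06 CPM at C5, a log2 change of -2.40 (SE 0.316).

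In 3 chemicals TNC was higher at C5 than at C1. In valproic acid it had 34.4, 39.1 and 39.6 CPM at C1, 110.1, 100.4 and 113 CPM at C4 and 104, 119.7 and 70.3 CPM at C5, a log2 change of 1.39 (SE 0.223). In apicidin the values were 81.5, 67.3 and 87.1 CPM at C1 and 117, 176 and 175 CPM at C5. In panobinostat they were 63.1, 59.8 and 59.4 CPM against 102, 95.0 and 98.9 CPM. In these 3 chemicals every C5 library was above every C1 library, a gap that the choice of TNC on these differences favours. In trichostatin A the C1 and C5 libraries overlapped, at 70.3, 66.8 and 41.8 CPM and 44.0, 34.7 and 53.8 CPM. TNC levels at C1 also differed between chemicals, from a mean of 37.7 CPM in valproic acid to 141 CPM in mocetinostat. As doses are not matched, these values stand side by side only.

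SPARC (osteonectin) fell at C5 in 5 chemicals by its better-counted probe, SPARC_24939. In tacedinaline this probe had 50.5, 50.9 and 63.9 CPM at C1 and 6.92, 8.56 and 9.36 CPM at C5. The log2 change was -2.65 (SE 0.273, edgeR adjusted p = 1.01e-10), and at C4 it was already -1.57 (adjusted p = 1.625e-06). In mocetinostat it had 32.4, 42.4 and 42.0 CPM against 6.95, 6.67 and 6.36 CPM, a log2 change of -2.46 (adjusted p = 4.04e-05). The groups lay well apart in both. The fall was -1.31 in apicidin (adjusted p = 4.90e-04), -1.47 in scriptaid (0.00780) and -1.44 in vorinostat (3.07e-04). The call in scriptaid was lost without batch 2 (adjusted p = 0.110). The second probe, SPARC_6699, fell in mocetinostat (-3.25) and tacedinaline (-2.27), where C5 counts were 9, 3 and 3, and 7, 2 and 12. The mocetinostat call of SPARC_6699 was lost without batch 2 (adjusted p = 0.158). In panobinostat and valproic acid SPARC_24939 had log2 changes of 0.61 and 0.57 that were not called at C5 (adjusted p = 0.0767 and 0.149), and by trend SPARC_6699 rose in valproic acid (fitted log2 change 0.97, adjusted p = 0.0188).

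SPARC was also 1 of the few members called as rising at a middle concentration. In vorinostat SPARC_24939 had 33.0, 20.9 and 26.4 CPM at C1, 48.1, 65.7 and 45.5 CPM at C3 and 8.16, 12.2 and 5.89 CPM at C5. It rose at C3 (log2 change 1.04, SE 0.270, adjusted p = 0.01205) and fell at C5. The highest mean of SPARC_24939 was at C2 to C4, which are most of the concentrations, in 7 of 8 chemicals, as was that of VCAN. The number was 6 for LUM, FN1_2459, FN1_27231 and TNC and 5 for POSTN and SPARC_6699. It was 4 for FN1_13666, 2 for DCN_27098 and 0 for CCDC80, so such a maximum was not particular to SPARC.

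POSTN (periostin) fell at C5 in apicidin, mocetinostat, scriptaid, tacedinaline and vorinostat. In apicidin it had 24.9, 32.2 and 31.3 CPM at C1 and 4.44, 4.15 and 3.73 CPM at C5, a difference of -2.82 on the log2 scale (SE 0.472, adjusted p = 1.10e-04 by edgeR). In tacedinaline it had 41.3, 26.0 and 48.8 CPM against 8.41, 2.40 and 11.4 CPM, a change of -2.34 (adjusted p = 1.21e-06). All C5 libraries were below all C1 libraries in both. The change was -2.79 in mocetinostat (adjusted p = 0.00659), -1.53 in scriptaid (0.0492) and -1.49 in vorinostat (0.00420). These 3 calls were lost without 1 batch, with adjusted p = 0.0832 without batch 2 in mocetinostat, up to 0.248 in scriptaid without batch 1 or batch 2, and 0.127 without batch 1 in vorinostat. In trichostatin A POSTN had 31.8, 13.9 and 91.0 CPM at C1 and 14.9, 39.9 and 11.0 CPM at C5, and the log2 change was -1.03 with the C1 library that stands apart and -0.06 without it.

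LUM (lumican) fell in apicidin, tacedinaline and vorinostat, and it was the member that rose at C5 in valproic acid. In vorinostat it had 86.0, 52.6 and 84.2 CPM at C1 and 39.2, 31.5 and 18.3 CPM at C5, a difference of -1.22 on the log2 scale (SE 0.253, adjusted p = 1.34e-04 by edgeR). In apicidin the change was -1.10 (adjusted p = 0.00182), from 64.1, 87.0 and 52.8 CPM to 30.8, 37.9 and 25.6 CPM. The groups did not overlap in either. In tacedinaline it was -0.79 (adjusted p = 0.00200). In valproic acid LUM had 109, 85.2 and 52.9 CPM at C1 and 142, 119 and 116 CPM at C5. The rise there was 0.62 (SE 0.199, adjusted p = 0.0469), and the call was lost without each of the 3 batches in turn (adjusted p up to 0.188). BGN (biglycan), a close relative, had a median of 0 counts and at most 10, was over 3 counts in 5 of 118 libraries, and could be tested in no chemical.

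**Figure D4:**
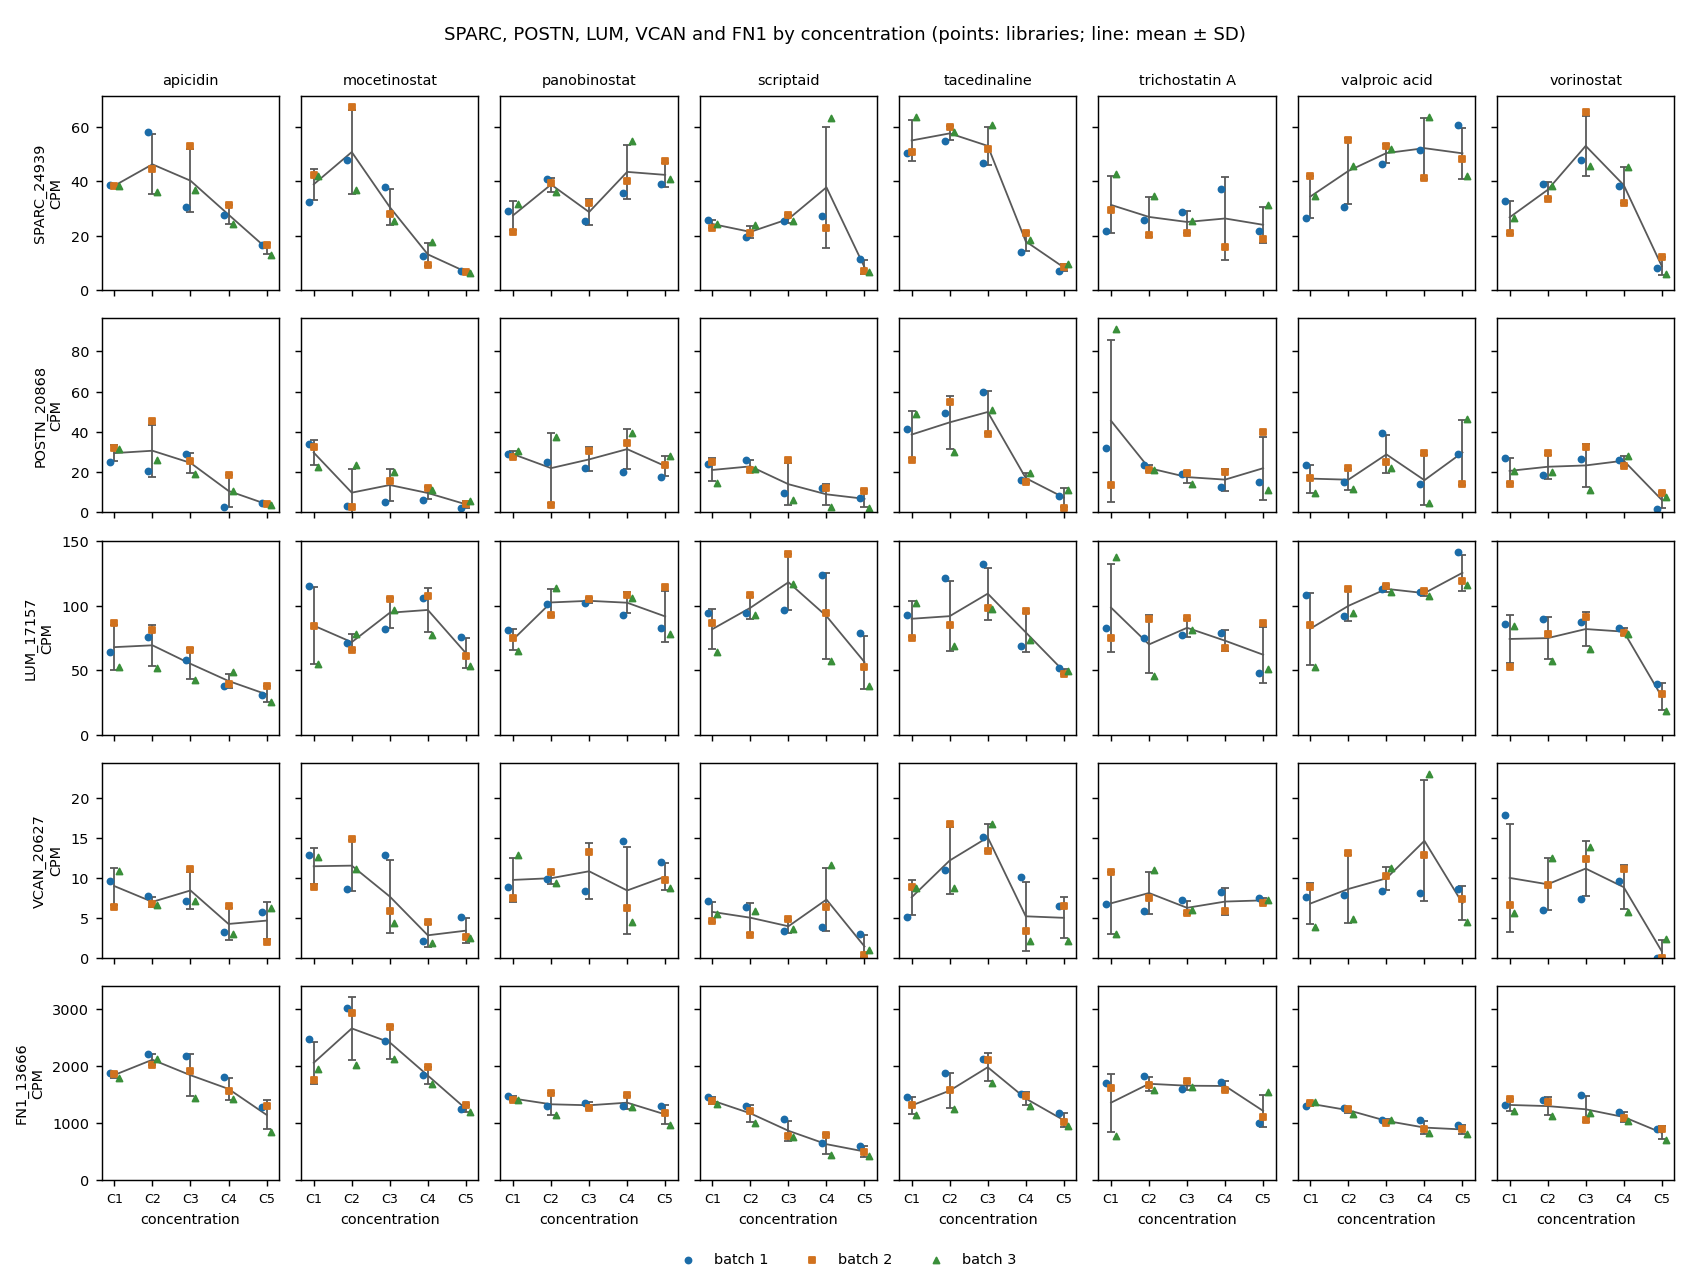
CPM of SPARC_24939, POSTN, LUM, VCAN and FN1_13666 (rows, linear axes from 0) at C1 to C5 of each chemical (columns). Points are libraries, coloured by batch, and the line joins group means with SD bars. SPARC peaks at C3 in vorinostat before its fall, POSTN has 1 trichostatin A library at 91.0 CPM at C1, and FN1 declines in scriptaid.

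FN1 (fibronectin) had the highest counts of the members, 603 to 12063 for FN1_13666. In scriptaid this probe had 1457, 1394 and 1345 CPM at C1 and 607, 486 and 416 CPM at C5. All 3 probes fell there, by log2 changes of -1.40, -1.30 and -1.13 (edgeR adjusted p = 4.96e-04, 4.82e-04 and 0.00239). All 3 had fallen at C4, where all 3 libraries are among those that stand apart. In apicidin all 3 fell by -0.67, -0.62 and -0.72 (adjusted p = 0.00377, 0.00977 and 0.0142). The apicidin calls were lost without batch 3, as those of FN1_2459 and FN1_27231 were without batch 2, and the scriptaid call of FN1_27231 was lost without batch 2 (adjusted p = 0.0993). FN1_13666 fell in mocetinostat (-0.63, adjusted p = 0.0205), lost without batch 1 or batch 2, where FN1_27231 had a log2 change of 0.05 (adjusted p = 0.918). In vorinostat and valproic acid FN1_13666 had changes of -0.56 and -0.58 (adjusted p = 9.27e-04 and 0.00169), which were under the 1.5-fold limit. In tacedinaline FN1_13666 rose at C3, from 1461, 1325 and 1150.1 CPM to 2132, 2120.0 and 1702 CPM (log2 change 0.62, adjusted p = 4.35e-04). Its C5 value there was a log2 change of -0.24 (adjusted p = 0.128).

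VCAN (versican) and FBLN1 (fibulin-1) rested on few counts. VCAN fell in vorinostat, from 32, 26 and 18 counts at C1 to 0, 0 and 4 at C5 (17.9, 6.55 and 5.59 CPM against 0, 0 and 2.36 CPM). The edgeR adjusted p was 8.53e-04. The size of this fall is poorly known, since C5 held 4 counts in all, and the fitted log2 change of -3.41 ran from -7.73 to -2.38 over the alternatives. It also fell in mocetinostat (-1.66, adjusted p = 0.0252), where the call was lost without batch 2 or batch 3. In scriptaid its change of -2.00 was not called (adjusted p = 0.0515). FBLN1 passed the filter on low counts in 4 chemicals and fell in scriptaid, from 9, 4 and 5 counts at C1 to 0, 0 and 0 at C5 (adjusted p = 0.0106). It was at least 1.47-fold lower, with 3 counts per library as the floor, and the call was lost without batch 1 or batch 2. Its scriptaid means were 1.7 CPM at C1 and 3.8, 3.4 and 3.9 CPM at C2, C3 and C4. These middle groups could decide that it passed the filter there, and its fall is counted among those at C5.

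Below C5 few members were called. At C2 none of 68 pairs was, by edgeR's quasi-likelihood test, with 7 pairs at an unadjusted p under 0.05, and 0 to 0.385% of all rows were called in a chemical. At C3 the calls among the 7 genes were 2 rises, of SPARC in vorinostat (3.18% of all rows rose) and FN1 in tacedinaline (5.44%). No pair fell at C3. Over all rows 8.39% fell there in apicidin, 6.46% in tacedinaline, 5.14% in mocetinostat and at most 3.88% in the other chemicals. At C4 12 pairs fell in 5 chemicals and none rose. None of 8 probes was called at C4 in vorinostat, where 16.7% of all rows fell and 15.6% rose. The calls at C4 were FN1 in scriptaid (2.67% of all rows fell) and by 2 probes in valproic acid (6.35%), LUM and POSTN in apicidin (11.2%), VCAN and SPARC in mocetinostat (11.6%), and POSTN and both SPARC probes in tacedinaline (16.4%). All 3 scriptaid C4 libraries and the apicidin C4 library of batch 1 are among those that stand apart. In valproic acid FN1_2459 and FN1_27231 fell at C4 (adjusted p = 0.0190 and 0.0409), with 2 of the 3 C4 libraries among those that stand apart, and neither was called at C5. By trend over all concentrations 14 pairs fell and 1 rose, in 5 chemicals. They were 5 of 8 in apicidin (17.2% of all rows fell), 3 of 8 in mocetinostat (17.7%), 3 of 9 in scriptaid (6.18%) and 3 of 8 in tacedinaline (21.5%), and the rise was in valproic acid (7.16% rose). No member was called by trend in vorinostat, where 3 of 8 probes had an unadjusted p under 0.05, and 23.0% of all rows fell and 24.4% rose. The shares of all rows at an unadjusted p under 0.05 are not given for C2 or for this trend.

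The HepaRG batches, which played no part in the choice of the genes, were compared over the 24 C1 libraries, with the chemical in the model. Over all rows 0.0907% were called (11 of 12127), and none of 13 probes of the members. Of these 13, 4 had an unadjusted p under 0.05, against 908 of 12127 over all rows. They were FN1_27231 and all 3 DCN probes, which read 1 gene in the same libraries and are not independent. Each DCN probe was lower in batch 2 than in batch 1. The log2 difference was -0.89 for DCN_1779, -0.50 for DCN_27098 and -0.57 for DCN_27099. For FN1_27231 it was -0.02, and its batch 3 was lower than batch 1 by a log2 difference of -0.26. The lowest adjusted p was 0.116, for DCN_1779, whose median was 19.1 CPM in batch 1 (lowest 14.6, highest 32.2), 10.1 CPM in batch 2 and 12.4 CPM in batch 3. DESeq2 called this probe (adjusted p = 0.00957). CCDC80 had medians of 37.0, 40.1 and 38.3 CPM in batches 1, 2 and 3 (adjusted p = 0.991).

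Across the 32 groups from C2 to C5, the probes whose log2 change from C1 followed CCDC80 most closely were SELENBP1, SCP2 and SMO (Pearson's r = 0.868, 0.865 and 0.863). For DCN_27098 they were FBXO32, IFIT5 and RAB6D (0.769, 0.765 and 0.736), and for TNC they were PRG4, PWWP3B and TNIK (0.849, 0.820 and 0.812). They were the highest of 11288 probes, over groups that share a reference and libraries. Among the members, POSTN and SPARC_24939 had r = 0.759, SPARC_24939 and VCAN 0.714 and CCDC80 and SPARC_24939 0.71.

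Other matrix genes were counted at C5 in 6 lists, whose shares stand beside the 13.4% of pairs that fell and the 11.6% that rose over all rows. Of 206 tested pairs of a probe and a chemical among relatives of the matrix glycoproteins, 56 fell (27.2%) and 22 rose (10.7%). FSTL1, a secreted glycoprotein related to SPARC, fell in 7 chemicals, in tacedinaline from 392.5 ± 37.7 CPM to 20.6 ± 5.09 CPM (SD, n = 3, log2 change -4.16, edgeR adjusted p = 3.03e-22). VTN, which encodes the plasma adhesion protein vitronectin, fell by both probes in the same 7. Neither was called in trichostatin A. Of 83 pairs among relatives of the small leucine-rich and large proteoglycans 14 fell (16.9%) and 10 rose (12%), shares near those over all rows. Of these, 3 falls and 3 rises were of probes with few counts that passed the filter in some chemicals only, which their high groups could decide. All 3 rises were of KERA. Over the probes tested in every chemical 11 of 64 pairs fell and 7 rose. ECM2 fell in 5 chemicals, in tacedinaline from 12.5 ± 5.14 to 1.76 ± 1.15 CPM (SD, n = 3, edgeR adjusted p = 0.00181), and EPYC, a small leucine-rich proteoglycan of cartilage, rose in mocetinostat (2.22) and tacedinaline (1.86). SPOCK3, a proteoglycan of the SPARC family, fell in scriptaid and vorinostat by SPOCK3_23408, while its better-counted probe, SPOCK3_27905, fell in 3 chemicals and rose in 1.

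Integrins and other matrix receptors had 36 of 145 pairs falling (24.8%) and 13 rising (8.97%). SDC1, the proteoglycan receptor syndecan-1, fell in 6 chemicals, in vorinostat from 579.7 ± 53.6 to 48.9 ± 5.73 CPM (log2 change -3.46, edgeR adjusted p = 1.23e-15). HMMR, the hyaluronan-mediated motility receptor, fell in 7, and ITGA5, a fibronectin receptor chain, fell in mocetinostat and tacedinaline. Of the matrix proteases and their inhibitors 29 of 154 pairs fell (18.8%) and 35 rose (22.7%). Of these rises 7 were of probes with few counts that passed the filter in some chemicals only, which their high groups could decide, and over the probes tested in all 8 chemicals 28 of 128 pairs fell and 28 rose. MMP10 (stromelysin-2) rose in 6 chemicals, in tacedinaline from 0.488 ± 0.845 to 78.6 ± 20.1 CPM (adjusted p = 1.29e-16). MMP14, a membrane-bound protease, and MMP7 (matrilysin) fell in 7 chemicals each. Of the enzymes that build proteoglycan sugar chains 11 of 141 pairs fell (7.8%) and 19 rose (13.5%). The sulfotransferase CHST7 rose in 5 chemicals (log2 change 3.89 in tacedinaline), while its relative CHST3 fell in 4 and the galactosyltransferase B3GALT6 in 2. Genes of the TGF-beta axis, a main inducer of matrix genes, had 22 of 117 pairs falling (18.8%) and 14 rising (12%), the latter near the share over all rows. TGFBR3, the coreceptor betaglycan, rose by 1 or both probes in apicidin, tacedinaline and vorinostat, and BMP1, a procollagen proteinase, fell in 5 chemicals and rose in valproic acid.

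**Figure D5:**
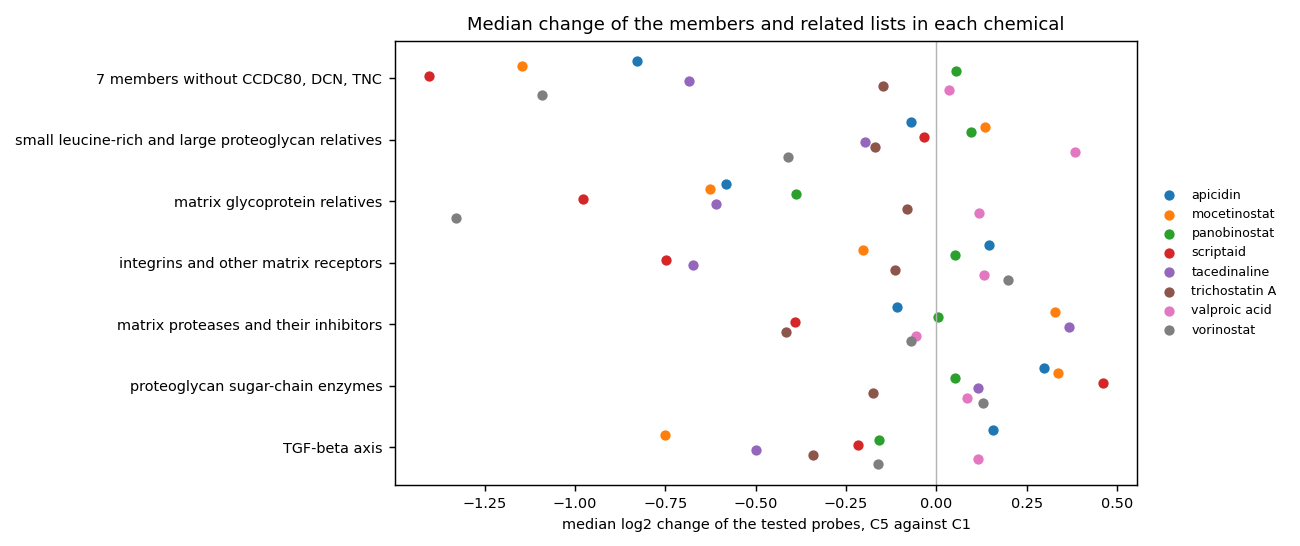
Median log2 change at C5 against C1 (horizontal axis) over the tested probes of the 7 tested genes and of 6 related lists (vertical axis). Each point is 1 chemical. The 7 genes have 5 chemicals between -1.40 and -0.68 and 3 near 0, and the proteoglycan sugar-chain enzymes have all but trichostatin A above 0.

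Markers of the cell types a HepaRG culture could hold moved as well. Of 48 tested pairs among stellate cell and fibroblast markers 15 fell (31.2%, against 13.4% over all rows) and 8 rose (16.7%, against 11.6%). The summed level of these markers was 69.7 to 119 CPM in the C1 libraries and 55.1 to 97.9 CPM in the C5 libraries. ACTA2, the actin of activated stellate cells, and COL3A1_28516, a fibrillar collagen chain, fell in 7 chemicals each, while COL1A1 rose in 6. THY1 and DES were over 3 counts in no library, and COL1A2 in 7 of 118. Hepatocyte markers fell in 92 of 112 pairs (82.1%), from a summed 15010.0 to 84110 CPM at C1 to 3288 to 54230 CPM at C5. CYP3A4, the main drug-metabolising cytochrome, and AHSG, a secreted plasma protein, fell in 7 chemicals each, in tacedinaline CYP3A4_88797 from 624.5 ± 209.6 to 2.94 ± 1.07 CPM and in scriptaid AHSG from 42.2 ± 8.91 to 0.0946 ± 0.164 CPM. Cholangiocyte markers had 5 of 41 pairs falling (12.2%) and 11 rising (26.8%), with SOX9 and SPP1 rising in 5 chemicals each and ANXA4 falling in 5. Their sum was 217.6 to 380.7 CPM at C1 and 113 to 402.8 CPM at C5. Endothelial markers had 1 of 10 pairs falling (KDR in scriptaid) and macrophage markers 3 of 16 (CD14 and CD68, 18.8%). Endothelial markers summed to 6.51 to 51.3 CPM at C1 and 0.420 to 20.45 CPM at C5, and macrophage markers to 24.7 to 122 CPM and 15.3 to 53.35 CPM. EPCAM, LYVE1 and PTPRC were over 3 counts in no library. The part of these shifts in the results for the 10 genes was not tested.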

How the data were processed

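Libraries were made by TempO-Seq, in which paired detector probes are hybridised to transcripts, ligated, amplified and sequenced. The authors deposited raw counts per probe for 118 libraries in 40 groups, with no normalisation. Per the labels, bcl2fastq 2.20.422, fastp 0.23.2, STAR 2.7.10b and DESeq2 1.38.0 were named, and the genome build was not given in the sources used here. One row of 22069 lacked 88 values and was left out. No molecular identifiers were counted, so floors cover counting error only.

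Each chemical was fitted alone in R 4.3.3 with edgeR 4.0.16 (filterByExpr, TMM, quasi-likelihood F test), C2 to C5 against C1 and as a slope on log2 dose, with Benjamini-Hochberg adjustment over all rows tested. Calls needed an adjusted p under 0.05 and a fold of at least 1.5. The standard error is the size of the log2 change divided by the root of F. The floor was 3 counts in every library of a group, and log2 CPM used a prior count of 2. Replicate numbers are HepaRG batches in the labels, which name no separate donors, so p-values measure the spread between these batches. As a check of the pairing, each library's deviation from its group was correlated with those of other concentrations of the same chemical, and the median r was 0.053 where the batch was shared (232 pairs) and -0.024 where it was not (464 pairs). The batch as a block, DESeq2 1.42.0, its size factors, no filter, no fold limit and leaving out each batch were alternatives. The script was tested on simulated counts.

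The genes and lists were chosen with earlier results of these data known. Named from other lists were the 3 probes with the largest median change at C5 among those tested in at least 6 chemicals. For the closest patterns the 3 highest correlations were named. The related lists and their 281 calls are a description.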

Additional observations from a re-analysis of the deposited data

Results flagged for a closer look

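In each HepaRG batch the 8 C1 libraries, 1 per chemical, were searched for a library far from the others, for 13 probes and so in 39 sets, where chance gives about 1 in 20. Each set holds 3 libraries of plate E (scriptaid, tacedinaline and vorinostat) and 5 of plate H, and 3 of the libraries named below, those of SPARC, DCN_1779 and LUM, are of plate E. The part of the plate was not tested. There was one in 6 sets. TNC was 152.1 CPM in mocetinostat in batch 1 (next 86.7) and 142.4 CPM in mocetinostat in batch 3 (next 87.1), so the same chemical stood out in both. SPARC_24939 was 63.9 CPM in tacedinaline in batch 3 (next 42.7). DCN_1779 was 20.4 CPM in scriptaid in batch 2 (next 12.8). LUM was lowest at 52.6 CPM in vorinostat in batch 2 (next 74.9). DCN_27099 was 34.3 CPM in trichostatin A in batch 3 (next 8.71), in the C1 library that stands apart from its group.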

How the results depend on the processing

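The 26 calls at C5 against C1 numbered 27 to 31 with DESeq2 or its size factors, without the filter, with the replicate block or without the fold limit, and 15 to 23 when 1 batch was left out (15 without batch 2). Of these 26, 13 were called under every alternative and all 26 kept their direction. The 15 calls by trend became 8 to 18 without 1 batch (9 without batch 2, 8 without batch 3), and the 14 at C2 to C4 became 8 to 14. The 281 calls of related lists became 195 to 243. With the replicate block the numbers were 27, 19, 15 and 284, so no count moved by over 1.5 times. Without the 12 libraries that stand apart, an alternative chosen after seeing the data, they were 29, 18, 15 and 327. In the comparison of batches, 0 members were called at first, 1 with DESeq2 (DCN_1779), and 2 both without the filter and without trichostatin A (DCN_1779 and DCN_27099). The causes were not tested. BGN, with a median of 0 counts, could be tested in no chemical, and FBLN1, with 3.5, in 4.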
